A study of Mus with 6 samples.

Results

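Wfdc17 and 8 marker genes of border macrophages were examined in the hippocampus of mice loaded with forced swim stress (FSS). The genes were Wfdc17, Mrc1, Cd163, Lyve1, Stab1, Pf4, F13a1, Cbr2 and Ms4a7. They are 9 of the 19938 genes that the array measured through rows with exactly 1 gene symbol, and each of the 9 was represented by 1 row. Wfdc17 was selected on its difference in level between the FSS and control mice on these same arrays, so that difference is given as a description without a test. The other 8 were listed as markers of the cell type, at a time when results of these data were known.

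Border macrophages live where the brain meets its coverings and vessels, in the meninges, the perivascular spaces and the choroid plexus. They are distinct from microglia, the macrophages of the brain tissue itself, and they take up proteins, lipids and hyaluronan from the surrounding fluid through scavenger receptors such as the mannose receptor. Wfdc17 encodes a small protein that is secreted and carries a whey acidic protein domain. It is also called Amwap, for activated microglia/macrophage WAP domain protein, and is known in mice as a product of activated microglia as well as of macrophages.

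The samples were whole hippocampi of male C57BL/6JJmsSlc mice, aged 10 to 11 weeks in the labels. The 3 FSS mice were placed in a cylinder of water for 11 min a day on 5 consecutive days, and the 3 control mice were not. In the paper's schedule a tail suspension test followed, also given to control mice, and the hippocampus was collected on a later day. No sorting of cells was used, and the methods describe neither perfusion nor removal of the meninges. Levels are the log2 values of robust multi-array averaging (RMA), in which a difference of 1 is a doubling, with 1 array for each mouse.

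The 6 arrays had medians of 7.32 to 7.35 over all rows. The spread of the values (SD over all rows) was 2.26 to 2.27 in 3 arrays and 2.22 to 2.23 in the others, which were those of control mice 1 and 2 and of FSS mouse 2. Neurons were well represented, with all 11 listed genes of hippocampal neurons over the median level of the rows tested. Among them, Snap25 had means of 13.74 in control and 13.76 in FSS mice, and Syt1 had a mean of 13.3 in both groups. All 9 border macrophage genes lay below that median of 7.68, from percentile 10.4 (Ms4a7) to percentile 46.9 (Stab1) of the signals. The signal of a row depends on its probes, so the genes are not ranked by abundance here. The deposited table holds no detection calls, and whether these signals lay above background was not tested. By the labels each array is of a separate mouse, and the precision is limited by there being 6 arrays. The paper states that 3 of the mice it arrayed in the FSS experiment were picked at random for its volcano plot. The 6 arrays may therefore be a subset of those run.

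Among the 9 genes, Wfdc17 had the largest difference between the groups. Its levels were 6.61, 6.71 and 6.73 in the FSS mice and 6.32, 5.93 and 6.09 in the control mice. The groups did not overlap, and control mouse 2 was the lowest. FSS mice had a mean of 6.68 ± 0.064 (SD, n = 3) and control mice one of 6.11 ± 0.20 (SD, n = 3), a difference of 0.57 on the log2 scale (standard error 0.099, 1.48-fold). The control mice thus had the larger spread. The difference was 0.48 without control mouse 2, under the threshold of 0.5 that the methods set for a called gene, and 0.67 without control mouse 1. By the methods' thresholds (log2 fold change over 0.5, unadjusted p under 0.05), 6 of the 21789 rows or 0.0275% were higher, and Wfdc17 is among them by its selection, so nothing is read from this. Within the arrays of narrower spread (2 control mice, 1 FSS mouse) the difference was 0.58, and within those of wider spread (1 control mouse, 2 FSS mice) it was 0.58. This split was made after seeing the data and leaves 1 mouse in a group, so it cannot show whether the spread matters. In whole tissue, more cells of a type and more RNA in each cell cannot be told apart.

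**Figure D1:**
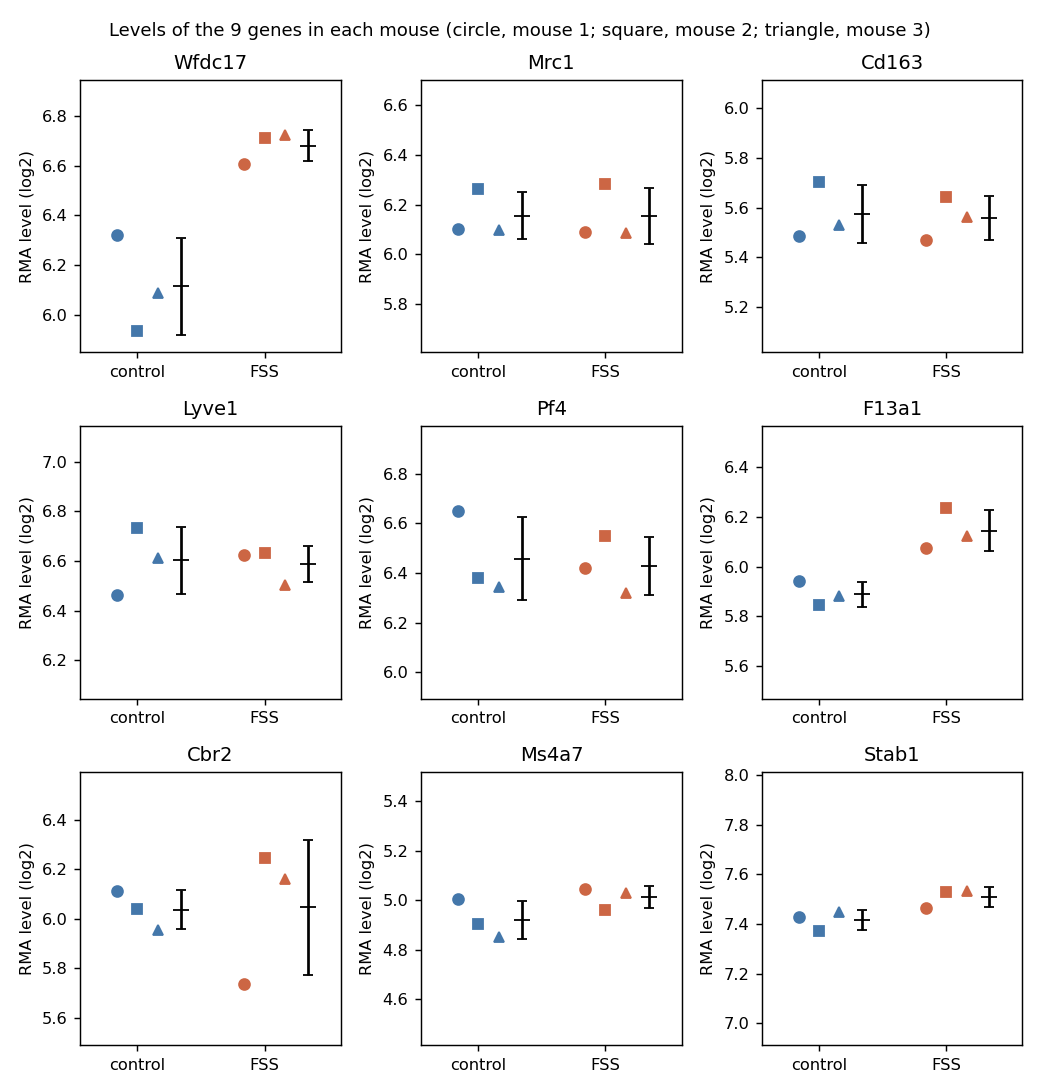
RMA level (log2, y axis) of each of the 9 genes in control (blue) and FSS (orange) mice, with each panel spanning the same range of log2 units. Symbols are mice 1 to 3 and black bars are the mean ± SD of 3 mice; the groups are apart for Wfdc17, F13a1 and Stab1 and overlap for the other 6 genes.

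Of the receptors that take up ligands, Mrc1, Cd163 and Lyve1 showed no difference that exceeded the spread between mice. Mrc1 encodes the mannose receptor CD206, the usual marker of border macrophages. Its levels were 6.09, 6.28 and 6.08 in the FSS mice and 6.10, 6.26 and 6.10 in the control mice. In both groups, mouse 2 was the high one and the others were nearly equal. The difference was -0.0020 (95% interval from limma -0.18 to 0.18, adjusted p = 0.999).

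Cd163, the scavenger receptor for complexes of haemoglobin and haptoglobin, showed a similar arrangement. Its levels were 5.47, 5.64 and 5.56 in the FSS mice and 5.49, 5.70 and 5.53 in the control mice. Mouse 2 was again the highest in each group, and the groups overlapped throughout. The difference was -0.016 (95% interval -0.19 to 0.16, limma adjusted p = 0.994). For Lyve1, a receptor for hyaluronan that lymphatic endothelium also carries, levels were 6.63, 6.63 and 6.50 in the FSS mice and 6.46, 6.73 and 6.61 in the control mice. All FSS mice lay inside the range of the control mice. The difference was -0.016 (95% interval -0.20 to 0.17, limma adjusted p = 0.994). The signs of these 3 differences changed under quantile normalization and when single mice were left out, so they have no settled direction. The intervals still allow differences of about the size seen for Stab1 or Ms4a7.

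Stab1 encodes stabilin-1, a large scavenger receptor of macrophages and of sinusoidal endothelium. Its levels were 7.46, 7.53 and 7.53 in the FSS mice and 7.43, 7.37 and 7.45 in the control mice. The groups did not overlap, although FSS mouse 1 and control mouse 3 were close together. The difference was 0.094 (standard error 0.045), which did not pass (limma unadjusted p = 0.0775, adjusted p = 0.943). With the methods' t-test, which uses the variance of Stab1 alone, the unadjusted p was 0.0440. The exact two-sided permutation test gave p = 0.1, the smallest that groups of this size allow. Among 18 genes of other scavenger and uptake receptors, 0 were higher and 1 was lower, against 2.49% and 2.66% of all rows tested. The lower gene was Mertk, a receptor for the uptake of dying cells (difference -0.18). Mertk lost its call when control mouse 3, FSS mouse 1 or FSS mouse 2 was left out, and there were 2 lower genes when control mouse 1 was.

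Of the secreted factors, F13a1 was higher in FSS mice and Pf4 was not. F13a1 encodes the A subunit of coagulation factor XIII, the transglutaminase that crosslinks fibrin, and is made by macrophages and megakaryocytes. Its levels were 6.07, 6.24 and 6.12 in the FSS mice and 5.94, 5.84 and 5.88 in the control mice. The groups did not overlap, with FSS mouse 2 the highest and control mouse 2 the lowest. The means were 6.15 ± 0.084 (SD, n = 3) and 5.89 ± 0.051 (SD, n = 3). The log2 difference was 0.26 (standard error 0.057), or 1.19-fold. This passed the unadjusted threshold but not the adjusted one (limma unadjusted p = 0.00313, adjusted p = 0.943). An exact two-sided permutation test of F13a1 gave p = 0.1, which is again the lowest possible. Leaving out each mouse gave differences of 0.21 to 0.29, and the unadjusted p stayed under 0.05 in each of the 14 alternatives that kept the gene (highest 0.0130). Within the arrays of narrower and of wider spread the difference was 0.35 and 0.22, each with 1 mouse in a group, so nothing is read from this.

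Pf4 encodes platelet factor 4, a chemokine stored in platelets and a marker of border macrophages in the mouse. Its levels were 6.42, 6.55 and 6.32 in the FSS mice and 6.65, 6.38 and 6.34 in the control mice. Control mouse 1 was the highest of the 6 mice and FSS mouse 3 the lowest, and the groups overlapped. The difference was -0.028 (95% interval -0.26 to 0.20, limma adjusted p = 0.993), and it was 0.068 without control mouse 1. Since platelets hold transcripts of both Pf4 and F13a1, a list of platelet and megakaryocyte genes was read beside them. Of its 6 measured genes, 0 were higher and 0 lower at an unadjusted limma p under 0.05 (2.49% and 2.66% of all rows). When control mouse 1 was left out, 1 was higher, and 1 was with the replicate number as a block. Their mean level was 6.35 to 6.46 in FSS mice and 6.32 to 6.46 in control mice. The list held 10 genes, and 0 of the 6 measured lay over the median level of the rows tested. Whether platelets contributed to the levels of Pf4 or F13a1 was not tested.

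Cbr2, a carbonyl reductase, and Ms4a7, a membrane-spanning protein of macrophages, completed the set. Cbr2 levels were 5.74, 6.24 and 6.16 in the FSS mice and 6.11, 6.04 and 5.96 in the control mice. FSS mouse 1 was the lowest of the 6 mice, whereas the other FSS mice were the highest. The difference was 0.010 (95% interval -0.30 to 0.32, limma adjusted p = 0.998), and the spread within groups was larger than that of 94.3% of the rows tested. Without FSS mouse 1 the difference of Cbr2 was 0.17 with an unadjusted p of 0.0497. For Ms4a7, levels were 5.05, 4.96 and 5.03 in the FSS mice and 5.00, 4.91 and 4.85 in the control mice. Control mouse 1 lay among the FSS mice, so the groups overlapped. The difference was 0.092 (95% interval -0.038 to 0.22, limma adjusted p = 0.943).

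Taking the 8 genes other than Wfdc17, 1 was higher and 0 were lower at an unadjusted p under 0.05, against 2.49% higher, 2.66% lower and 5.14% in either direction of all rows tested. Of the 8, 2 had every FSS mouse above all control mice, against 6.02% of all rows, and 0 had every FSS mouse below them, against 4.25%. A further count is that 4 of the 8 had a difference above 0, against 53.0%. The median difference of the 8 genes was 0.0040, and that of all rows was 0.0049. With Wfdc17 included it was 0.010, which became -0.039 when FSS mouse 2 was left out and 0.075 when FSS mouse 1 was. Over all rows, 0 passed an adjusted p of 0.05 from limma, whereas 1121 passed an unadjusted p of 0.05 and the smallest adjusted p was 0.872. Of the 9 genes, Wfdc17 and F13a1 had the largest differences, and 5 of the other 7 had differences between -0.028 and 0.010.

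**Figure D2:**
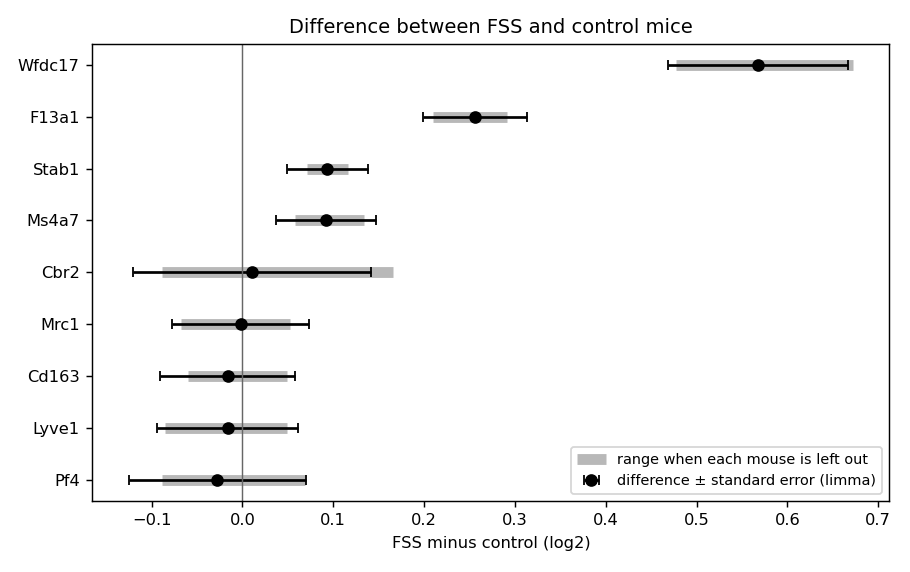
Difference between FSS and control mice (log2, x axis) for each of the 9 genes (y axis). Points and black bars are the difference ± its standard error from limma, and grey bands are the range of differences when each mouse was left out, which for Wfdc17 ran from 0.48 to 0.67 and for Mrc1 from -0.067 to 0.053.

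The mice also differed from each other across the marker genes. In FSS mouse 2, all 8 genes other than Wfdc17 lay above the mean of the control mice, whereas in each of FSS mouse 1 and FSS mouse 3 this held for 4 of the 8. Genes of meningeal fibroblasts were high in the same mouse. Their median lay 0.32 above the mean of the control mice in FSS mouse 2, 0.027 above it in FSS mouse 3 and 0.040 below it in FSS mouse 1 (-0.040). Endothelial and mural genes had medians of 0.16, 0.0092 and 0.096 in these mice. Without FSS mouse 2 the differences of Wfdc17 and F13a1 were 0.55 and 0.21. At an unadjusted p under 0.05 from limma, 1 of 18 meningeal genes (Lum), 1 of 14 endothelial and mural genes (Acta2) and 1 of 13 measured genes of choroid plexus epithelium (Ttr) were higher, and 0 of each were lower. The shares of all rows tested were 2.49% higher and 2.66% lower. The paper chose Ttr for its high fold change in arrays of this experiment, so its call is only a description. No other measured gene of the choroid plexus list was higher. When FSS mouse 2 was left out, Lum and Acta2 lost their calls, and 2 meningeal genes and 1 choroid plexus gene were lower. The number of higher meningeal genes was 2 when control mouse 2 was left out and 3 when FSS mouse 1 was, and it was 0 with the methods' t-test, 4 with a mean-variance trend and 6 with the array spread as a block. Of the endothelial and mural genes, 3 were higher when control mouse 1 was left out and 2 when FSS mouse 3 was. Ttr lost its call when FSS mouse 1 or FSS mouse 3 was left out. With the methods' t-test, 0 endothelial and mural genes and 0 choroid plexus genes were higher. The part of these cell types in the differences of the 9 genes was not tested.

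A longer list of 28 other border macrophage genes was read in the same way. Of these, 3 were higher and 0 were lower at an unadjusted p under 0.05 (5 higher when FSS mouse 1 was left out, and 1 lower when control mouse 2 or 3 or FSS mouse 2 or 3 was), with a median difference of 0.028. The higher genes were Tgfbi, Ednrb and Mgl2. Over all rows tested, 2.49% were higher and 2.66% were lower. Tgfbi, a matrix protein induced by transforming growth factor beta, was 0.30 higher (standard error 0.059, adjusted p = 0.872 in limma). Ednrb, an endothelin receptor that astrocytes also express, had a difference of 0.25, and Mgl2, a lectin of macrophages and dendritic cells, had a difference of 0.22. Each of these 3 kept an unadjusted p under 0.05 in all alternatives that kept the gene. Of 12 measured genes of MHC class II macrophages and dendritic cells, only Flt3 was higher (difference 0.13), and it lost its call when any 1 mouse other than FSS mouse 1 was left out. With that mouse left out, 3 genes of this list were higher.

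Microglial genes were set beside Wfdc17, since microglia also express it. Of all rows tested, 2.49% were higher and 2.66% were lower at an unadjusted p under 0.05 from limma. Of 14 measured microglial genes, 6 were higher and 0 were lower at an unadjusted p under 0.05, with a median difference of 0.16, and 3 were higher with the methods' t-test. The mean level of the list was 8.78 to 8.85 in FSS mice and 8.59 to 8.75 in control mice, so that the groups did not overlap. As for Wfdc17, control mouse 2 was the lowest, which was not particular to microglial genes. It was also the lowest for genes of hippocampal neurons (10.57), of endothelial and mural cells (7.89) and of macrophages and other myeloid cells (7.55). This did not hold for every list, and for the 28 other border macrophage genes control mouse 3 was the lowest (6.42). The mean level of the 11 genes of hippocampal neurons did not overlap either, at 10.65 to 10.68 in FSS mice and 10.57 to 10.64 in control mice, with 1 gene higher and 0 lower. Of the higher microglial genes, P2ry13 had the largest difference (0.32). Other examples were Trem2, a lipid-sensing receptor (difference 0.20), and Gpr34, a receptor for lysophosphatidylserine (difference 0.25). Of the 14 microglial genes, 12 had a difference above 0 and 2 below 0. The latter were Sparc (-0.12), with every FSS mouse below every control mouse, and Selplg (-0.028). Tmem119 and Csf1r differed by 0.039 and 0.022. Of 16 genes shared by macrophages and other myeloid cells, 6 were higher and 0 were lower, among them Adgre1, which encodes F4/80 (difference 0.19). Leaving out control mouse 2 reduced this count to 1, leaving out FSS mouse 1 to 2 and leaving out control mouse 3 to 3. With the methods' t-test it was 3. The mean level of that list was 7.69 to 7.72 in FSS mice and 7.55 to 7.65 in control mice. Whether microglia contributed to the difference of Wfdc17 was not tested. Of 12 measured genes of monocytes and neutrophils, Camp was higher (difference 0.20) and S100a9 was lower (difference -0.13), and the median was -0.047. S100a9 lost its call when any 1 mouse other than control mouse 3 or FSS mouse 2 was left out.

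**Figure D3:**
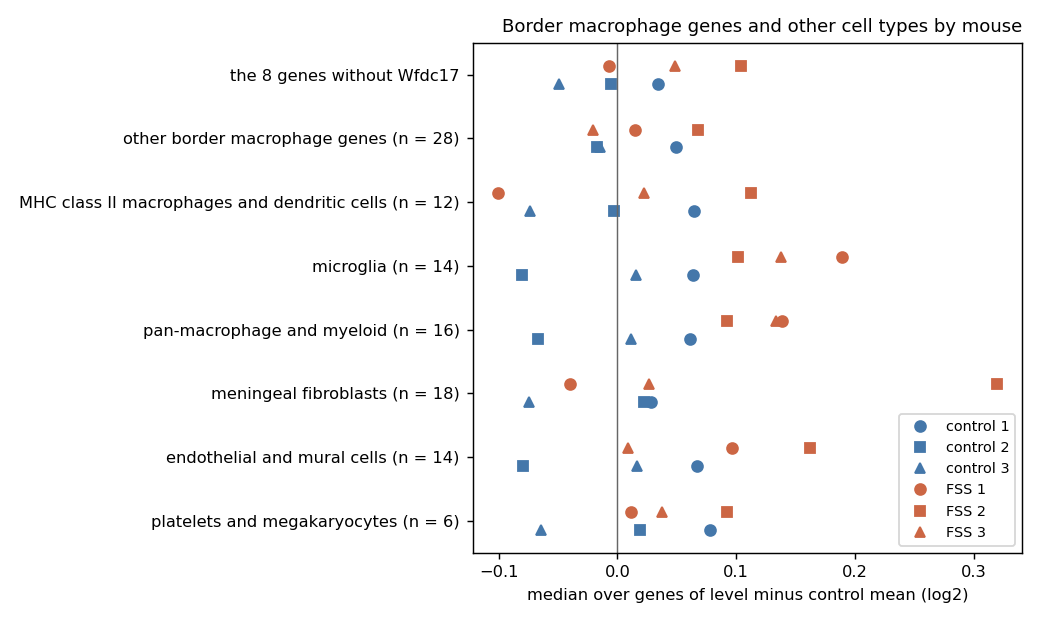
Median over the genes of each list of the level minus the mean of the control mice (log2, x axis), for 8 lists (y axis) in each of the 6 mice (blue, control; orange, FSS; n is the number of measured genes). The mice of the groups are apart for microglial and for pan-macrophage and myeloid genes, and they overlap for the border macrophage genes, where FSS mouse 2 is the highest at 0.10.

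Wfdc17 belongs to a family of proteins that share the whey acidic protein domain. Of 23 measured genes of the family, 22 lay below the median level of the rows tested. Of the 23, 0 were higher and 1 was lower (Wfdc10, difference -0.15), against 2.49% and 2.66% of all rows. That single lower gene became 4 when control mouse 3 was left out, 2 when FSS mouse 2 was, and 0 when control mouse 1 or FSS mouse 3 was. Wfdc10 itself lost its call when control mouse 1, FSS mouse 1 or FSS mouse 3 was left out. In the order of protein-coding genes in RefSeq (GRCm38.p6), Wfdc17 lies between the chemokine gene Ccl4 and its relative Wfdc18, and Wfdc21 follows. Wfdc18 differed by 0.13 (standard error 0.12, adjusted p = 0.971 in limma) and Wfdc21 by -0.073 (standard error 0.11, adjusted p = 0.978 in limma). Of the 8 nearest such genes, 4 on each side, 7 were measured, their differences ran from -0.073 to 0.18, and 0 passed an unadjusted p of 0.05. The highest was Ccl9, a chemokine of myeloid cells, with an unadjusted p of 0.0519 from limma.

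The genes with the profile most like that of Wfdc17 were then found. Likeness was the root mean square difference, over the 6 arrays, between the levels of both genes after each was centred on its own mean, among the 9857 genes with a mean over the median of all rows tested. A gene that did not vary would lie 0.31 from Wfdc17. The nearest were Ifitm3 (0.086), Slc7a11 (0.11), Fabp7 (0.12), Efemp1 (0.13) and Olfml3 (0.14). Ifitm3 is an interferon-induced membrane protein, Slc7a11 a transporter that exchanges cystine for glutamate, Fabp7 a fatty acid binding protein of astrocytes, Efemp1 an extracellular matrix protein, and Olfml3 a secreted protein of microglia. Their differences between FSS and control mice were 0.45, 0.43, 0.41, 0.36 and 0.30. All 5 were lower in control mouse 2 than in control mouse 1, as was Wfdc17. They were picked for likeness over these same arrays, which favours such a match, so nothing is read from this. F13a1 lay 0.18 from Wfdc17, rank 43 of all genes, whereas Mrc1, Cd163, Lyve1, Pf4 and Cbr2 lay 0.31 to 0.36 from it, no nearer than a gene that did not vary. This is a description of 6 arrays, in which genes that differ between the groups in the same direction come out as alike.

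**Figure D4:**
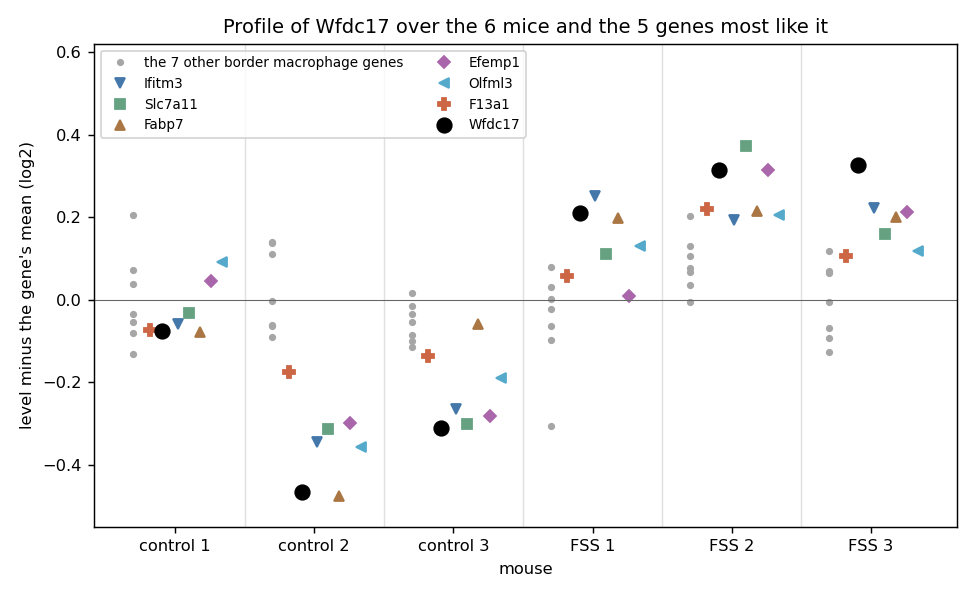
Level minus the mean of each gene (log2, y axis) in each of the 6 mice (x axis) for Wfdc17 (black circles), the 5 genes most like it, F13a1 (orange crosses) and the other 7 border macrophage genes (grey points). Wfdc17 lies below 0 in the 3 control mice and above 0 in the 3 FSS mice, and the grey points scatter around 0 in both groups.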

How the data were processed

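The authors made the deposited log2 values from CEL files of GeneChip Mouse Gene ST arrays by RMA in the Affymetrix Expression Console, which subtracts background, gives all arrays a common distribution and summarises the probes of each transcript cluster. Quantile steps of this kind can shrink shifts that involve many genes. The genome build is not given in the sources used here. Of 28944 rows, 21789 had 1 gene symbol in the annotation of the array, 1621 had several and 5534 are unnamed here. A symbol with several rows was represented by the one of highest mean level. All 9 genes matched RefSeq (GRCm38.p6) by gene ID, which was used for names and gene order only.

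FSS minus control was fitted over the 21789 rows with the lmFit and eBayes functions of limma 3.58.1 (R 4.3.3), without covariates, with Benjamini-Hochberg adjustment over all rows. The methods give the thresholds of 0.5 and 0.05 without naming a test for the arrays. In general they use Student's t-test where variances are equal and the Mann-Whitney U test where they are not. For multiple comparisons they use ANOVA with the Tukey-Kramer test. Student's test is called the methods' t-test here and was an alternative, and the Mann-Whitney test was not run. The fit was tested on simulated data. The members and the 13 gene lists were chosen with earlier results of these data known. Genes named are the 9 members, list members with an unadjusted p under 0.05 (at most 4 a list), genes of the whey acidic protein family, the 5 genes most like Wfdc17 and, added later, its neighbours. Alternatives changed the variance model, the weights of arrays, the normalization, the rows of a symbol or the genes kept (dim ones left out), used replicate numbers as a block, or left out single arrays.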

Additional observations from a re-analysis of the deposited data

How the results depend on the processing

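The 9 genes were recomputed under 14 alternatives. F13a1, Ms4a7 and Stab1 kept the sign of their difference in all of them. The difference of Wfdc17 ran from 0.48 to 0.67, but Wfdc17 was selected on it, so this is no sign of stability. The counts that follow include Wfdc17 and are no sign of stability either. The count of higher genes at an unadjusted p under 0.05 was 2 with all mice (Wfdc17 and F13a1) and 2 to 3 when each mouse was left out, and that of lower genes was 0 throughout. Only Wfdc17 lay past a log2 fold change of 0.5, a count of 1, which was 0 to 1 when each mouse was left out (0 without control mouse 2). The median difference of the 9 genes (0.010) was -0.012 with array weights, -0.039 to 0.075 when each mouse was left out, and 0.080 with the array spread as a block, an alternative chosen after seeing the data. The differences of 5 genes near 0 changed sign. With quantile normalization they were 0.018 for Mrc1, 0.0058 for Cd163 and 0.000148 for Lyve1. With median centring Mrc1 was at 0.000992, with array weights Cbr2 was at -0.035, and with the spread as a block Mrc1 was at 0.045, Cd163 at 0.016 and Pf4 at 0.031. When each mouse was left out, the differences ran from -0.067 to 0.053 for Mrc1, -0.060 to 0.050 for Cd163, -0.085 to 0.049 for Lyve1, -0.088 to 0.068 for Pf4 and -0.089 to 0.17 for Cbr2, and Wfdc21 ran from -0.21 to 0.031. The cause was not tested. The filter on dim genes removed all 9 genes, since each lies below the median level, and gave no value.

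Control and FSS mice share replicate numbers in their labels. The deviations of mice with the same number correlated at -0.048, 0.145 and 0.239. Control mouse 2 and control mouse 3 correlated best with the FSS mouse of the same number, and control mouse 1 with FSS mouse 2 (0.131). These correlations do not settle whether the numbers mark pairs, and the main fit did not use them. With the replicate number as a block, 2 of the 9 genes were higher (F13a1 and the selected Wfdc17) and 0 were lower, 1 was past 0.5 (Wfdc17) and the median was 0.010. Over all genes the block moved the count at an unadjusted p under 0.05 from 1036 to 1376.

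With the methods' t-test, F13a1 and Stab1 were higher beside the selected Wfdc17, and 0 genes passed after Benjamini-Hochberg adjustment (smallest adjusted p 0.574), against 991 at an unadjusted p under 0.05.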
